A study of Mus musculus with 6 samples.

Results

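The voltage-gated sodium channel genes followed here were the alpha subunits Scn1a, Scn2a, Scn3a, Scn8a, Scn9a, Scn10a and Scn11a and the beta subunits Scn2b and Scn3b, measured in RNA-seq libraries of Dok6 mutant and control mice. They were chosen by gene symbol, and all 9 were found among the 54532 genes of the count table. The mutants carried a deletion of exon 3 of Dok6, made by crossing mice with a loxP-flanked exon 3 to EIIA-cre mice. This Cre acts in the early embryo, so the deletion was in the whole body and not in one cell type. The paper writes the mutants of this experiment as Dok6-/-, a homozygous deletion, while the sample titles say only Dok6 mut. The controls were wild-type littermates on the same C57BL/6 background, and the labels name no further allele or treatment in either group. Whether the mutants still carried the Cre transgene is not stated. Each group held 3 mice at postnatal day 3, 1 library a mouse, and sex was not distinguished in the labels. The RNA was labelled as coming from the sciatic nerve.

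A voltage-gated sodium channel is built around 1 large alpha subunit, which forms the pore, opens on depolarization and carries the upstroke of the action potential. Beta subunits are small membrane proteins that bind the alpha subunit and alter its gating and its place in the membrane. Scn9a, Scn10a and Scn11a are best known from sensory neurons of the dorsal root ganglion, above all from those that detect painful stimuli, and mutations in them cause inherited pain disorders. Scn1a, Scn2a, Scn3a and Scn8a are used widely by neurons of the brain and spinal cord, and several of them are also found in glia. The messenger RNA of a neuron lies mostly in its cell body, whereas a peripheral nerve holds axons, Schwann cells and connective tissue.

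The alpha subunits differ in their block by tetrodotoxin, and a single residue in the pore loop of the first domain is known to set it. The coding sequence of this stretch is shown because it separates the pair of genes with the largest differences below from other members. Each was read from the GENCODE M21 transcript on GRCm38 (the same assembly as mm10, the build named in the submitters' processing notes), and the capitals mark the codon of that residue.

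Scn9a: actcaggacTACtgggag
Scn10a: acgcaggacTCCtgggaa
Scn11a: actcaagacTCCtgggag
Scn2a: actcaagacTTCtgggaa
Scn3a: actcaagacTACtgggag
Scn8a: actcaggacTACtgggag

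The marked codon was a serine in Scn10a (residue 356, exon 8, chr9:119666381-119666398, minus strand) and in Scn11a (residue 358, exon 9, chr9:119805674-119805691, minus strand). It was a tyrosine in Scn9a (residue 362, exon 10, chr2:66548995-66549012, minus strand), in Scn3a (residue 384, exon 9, chr2:65521807-65521824, minus strand) and in Scn8a (residue 371, exon 9, chr15:100971629-100971646, plus strand). It was a phenylalanine in Scn2a (residue 385, exon 9, chr2:65688427-65688444, plus strand). An aromatic residue here goes with block at low toxin concentrations and a serine with resistance, so Scn10a and Scn11a are the tetrodotoxin-resistant members.

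The libraries held 17699904 to 18678170 counts, and 3 counts, taken as the smallest detectable level, corresponded to 0.155 to 0.172 CPM (counts scaled to a common library size, with TMM factors), an allowance for counting error only. The targeted gene Dok6 was at 17.8, 11.9 and 17.5 CPM in control mice 1, 2 and 3 and at 7.25, 5.77 and 7.14 CPM in the mutants. Its log2 fold change was -1.23 ± 0.20 (SE; adjusted p = 0.0118, edgeR's quasi-likelihood test). The deleted exon was not counted apart, and the length deposited for Dok6 (5146 bases) is shorter than its annotated exons together (13804 bases), so which exons the count covers is not known. The label sciatic nerve was checked against marker genes, and the levels went against a peripheral nerve as the sole source. Summed over 8 genes of spinal cord and other central neurons, the level was 960 to 1063 CPM in the controls and 736 to 862 CPM in the mutants. The sum over 9 Schwann cell genes was 85.7 to 142 CPM in the controls and 224 to 1441 CPM in the mutants. These sums are not per length and are set beside each other only as levels within a list. In bulk tissue such as this, fewer cells of a type and less RNA per cell cannot be told apart.

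Of the 9 members, 4 were higher in the mutants at an adjusted p under 0.05 (Scn9a, Scn10a, Scn11a and Scn2b), beside 8.62% of the 17099 genes tested. None was lower by edgeR's quasi-likelihood test, beside 6.01% of all genes, although 2 had an unadjusted p under 0.05 (Scn1a and Scn3a); limma voom called none and DESeq2 called 1 of them (Scn3a). Of the 4 higher members, Scn10a and Scn11a also passed a log2 fold change of 2, beside 1.08% of all genes. Every mutant library lay above every control library for 4 members (19.6% of all genes) and below for 2 (18.7% of all genes). The median log2 fold change of the 9 members was 0.11, against 0.01 for all genes tested, so the members did not move as a block: it was 4.80 for the 3 nociceptor-type subunits and -0.11 for the 4 broadly neuronal and glial alpha subunits. All 9 members passed the filter on low counts.

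**Figure D1:**
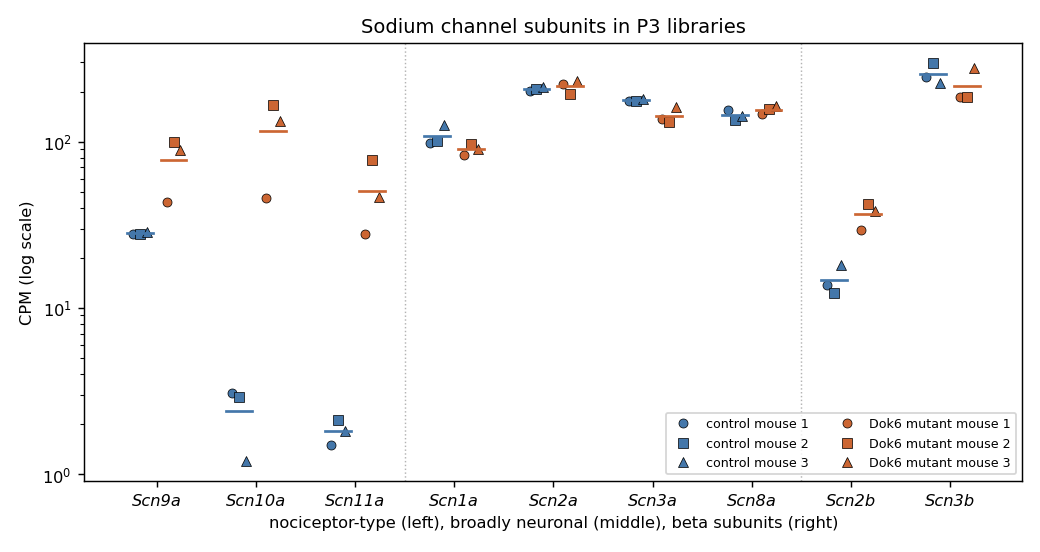
CPM (log scale) of the 9 sodium channel subunits in each library, with controls in blue, Dok6 mutants in orange, 1 symbol shape for each mouse number and a horizontal line at the group mean. Scn10a and Scn11a sit under 4 CPM in every control and above 27 CPM in every mutant, whereas the points of Scn2a and Scn8a overlap.

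Scn10a, the tetrodotoxin-resistant channel that carries most of the sodium current of the action potential in nociceptors, differed most. It lies at chr9:119608456-119719322 on the minus strand. Its level was 3.09, 2.92 and 1.20 CPM in control mice 1, 2 and 3 (54, 51 and 21 counts) and 45.9, 167 and 133 CPM in mutant mice 1, 2 and 3 (887, 3061 and 2518 counts). The lowest mutant library lay far above the highest control library, by a factor of 14.9, and mutant 1 was the lowest of its group. The group means were 2.40 ± 1.05 CPM and 115 ± 62.4 CPM (SD, n = 3), and the log2 fold change was 5.58 ± 0.54 (SE; 95% interval 4.34 to 6.82; adjusted p = 0.00433, edgeR's quasi-likelihood test). The controls were thus above the detection floor, at 21 counts or more in each, so this fold change rests on counts and not on zeros.

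Scn11a encodes a tetrodotoxin-resistant channel that opens near the resting potential and sets the excitability of nociceptors. It lies beside Scn10a, at chr9:119753759-119825456 on the same strand. Its level was 1.49, 2.12 and 1.83 CPM in the controls (26, 37 and 32 counts) and 27.7, 77.3 and 46.6 CPM in the mutants (534, 1419 and 881 counts). The groups were again far apart, by a factor of 13.1 between the nearest libraries, and mutant 1 was again the lowest of its group. The means were 1.81 ± 0.31 CPM and 50.5 ± 25.0 CPM (SD, n = 3), a log2 fold change of 4.80 ± 0.40 (SE; 95% interval 3.89 to 5.70; adjusted p = 0.0028, edgeR's quasi-likelihood test).

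Scn9a encodes the tetrodotoxin-sensitive channel whose loss of function removes pain sensation in people, and it is also used by sympathetic and other neurons. It lies at chr2:66480080-66634962 on the minus strand. Its level was 28.0, 27.6 and 28.5 CPM in the controls, a narrow range, and 43.2, 100 and 88.8 CPM in the mutants. No mutant library overlapped the controls, but the nearest pair of libraries was only 1.52-fold apart, with mutant 1 lowest as for the other nociceptor-type subunits. The log2 fold change was 1.46 ± 0.27 (SE; 95% interval 0.86 to 2.07; adjusted p = 0.0153, edgeR's quasi-likelihood test), and without control mouse 2 it was 1.45 with an adjusted p of 0.0841. An antisense gene, Gm13629, shares 180 exonic bases with Scn9a (1.41% of its exonic length) and held only 7 to 18 counts in any library.

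The 3 nociceptor-type subunits shared the order of the mutant libraries, with mutant 2 highest, mutant 3 next and mutant 1 lowest. The highest mutant library exceeded the lowest 3.63-fold for Scn10a, 2.79-fold for Scn11a and 2.31-fold for Scn9a, against a median of 1.25-fold over all genes tested. The mutant means of these subunits therefore carry a wide spread, while the side on which each library fell did not vary.

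The broadly neuronal alpha subunits were far more alike between the genotypes. Scn2a, the main early channel of axon initial segments and unmyelinated axons in the brain (chr2:65620771-65767447, plus strand), was at 202, 208 and 214 CPM in the controls and at 222, 194 and 232 CPM in the mutants. The groups overlapped, and the log2 fold change was 0.05 ± 0.09 (SE; 95% interval -0.14 to 0.25; adjusted p = 0.693, edgeR's quasi-likelihood test). Scn8a, the channel of mature nodes of Ranvier and initial segments (chr15:100869858-101045938, plus strand), was at 155, 136 and 144 CPM in the controls and at 147, 157 and 165 CPM in the mutants. These groups overlapped too, with a log2 fold change of 0.11 ± 0.08 (SE; 95% interval -0.08 to 0.29; adjusted p = 0.380, edgeR's quasi-likelihood test). The upper bounds correspond to 19.1% higher for Scn2a and 22.6% higher for Scn8a, so changes of the size seen in Scn9a lay outside both intervals.

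Scn3a and Scn1a lay on the other side. Scn3a, which is highest in embryonic and newborn brain (chr2:65457118-65567627, minus strand), was at 175, 176 and 182 CPM in the controls and at 137, 131 and 163 CPM in the mutants. All 3 mutants were below all 3 controls, and the log2 fold change of -0.31 ± 0.09 (SE; 95% interval -0.52 to -0.10) missed the threshold in edgeR's quasi-likelihood test at an adjusted p of 0.0558. DESeq2 gave -0.32 with an adjusted p of 0.0294, and leaving out mutant mouse 3 gave -0.41 with an adjusted p of 0.017.

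Scn1a, the channel of fast-spiking inhibitory neurons (chr2:66270778-66440840, minus strand), was at 98.9, 101 and 126 CPM in the controls and at 82.6, 96.9 and 90.9 CPM in the mutants. The groups did not overlap but came close, since mutant 2 lay only just below control 1. The log2 fold change was -0.27 ± 0.11 (SE; 95% interval -0.53 to -0.01; adjusted p = 0.132, edgeR's quasi-likelihood test).

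The beta subunits differed from each other. Scn2b, which is linked to the alpha subunit by a disulfide bond (chr9:45117782-45130070, plus strand), was at 13.7, 12.4 and 18.0 CPM in the controls and at 29.6, 42.0 and 38.5 CPM in the mutants. Every mutant was above every control, with mutant 1 again the lowest mutant, and the spread between mutants was small beside that of the nociceptor-type alpha subunits (1.42-fold). The log2 fold change was 1.32 ± 0.18 (SE; 95% interval 0.91 to 1.73; adjusted p = 0.00761, edgeR's quasi-likelihood test), and without control mouse 2 it was 1.21 with an adjusted p of 0.0525.

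Scn3b, which binds alpha subunits without a covalent bond (chr9:40269217-40291618, plus strand), was at 246, 296 and 226 CPM in the controls and at 186, 185 and 276 CPM in the mutants. Mutant 3 lay within the control range and the other 2 mutants below it. The log2 fold change was -0.25 ± 0.17 (SE; 95% interval -0.63 to 0.14; adjusted p = 0.340, edgeR's quasi-likelihood test), and without mutant mouse 3 it was -0.47 with an adjusted p of 0.0364.

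**Figure D2:**
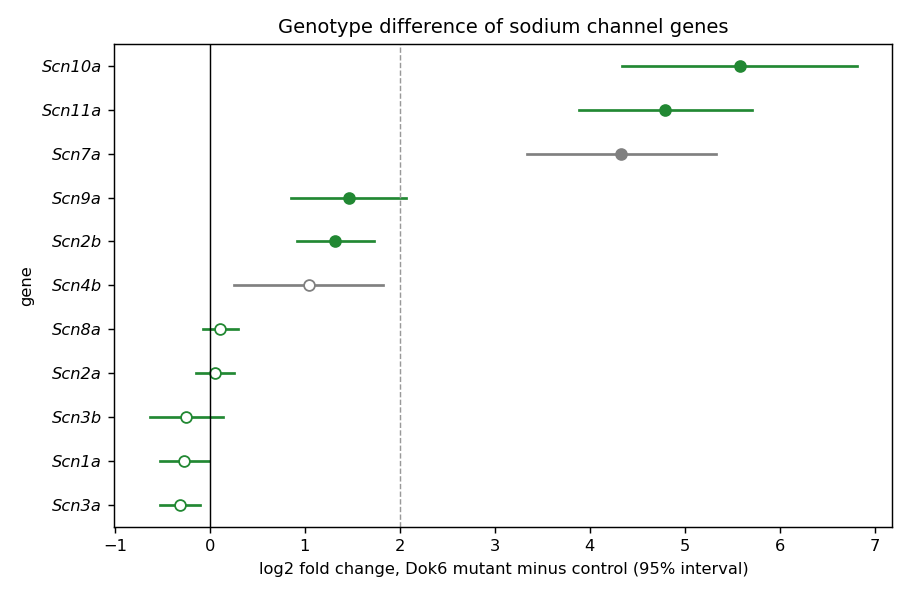
Log2 fold change (Dok6 mutant minus control) with its 95% interval for the 9 members in green and Scn7a and Scn4b in grey; filled symbols passed an adjusted p of 0.05, and the dashed line marks a log2 fold change of 2. The intervals of Scn10a, Scn11a and Scn7a lie wholly to the right of the dashed line, and those of Scn2a and Scn8a include 0.

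To order the members by level, CPM were divided by exonic length, giving CPM per kb. On that scale the order in the controls was Scn3b (46.9 ± 6.60), Scn2a (16.3 ± 0.47), Scn3a (14.3 ± 0.27), Scn1a (9.75 ± 1.37), Scn8a (9.18 ± 0.59), Scn2b (3.15 ± 0.63), Scn9a (2.20 ± 0.03), Scn11a (0.305 ± 0.05) and Scn10a (0.302 ± 0.13; means ± SD, n = 3). Scn1a and Scn8a did not differ beyond their spread in the controls, and neither did Scn10a and Scn11a at the bottom of the order. In the mutants the order was Scn3b (39.5 ± 9.62), Scn2a (17.0 ± 1.54), Scn10a (14.5 ± 7.83), Scn3a (11.5 ± 1.36), Scn8a (9.90 ± 0.59), Scn11a (8.52 ± 4.22), Scn1a (8.09 ± 0.64), Scn2b (7.88 ± 1.38) and Scn9a (6.06 ± 2.35). From Scn2a down to Scn9a the neighbours in this order differed by less than the larger of their SDs, except Scn3a and Scn8a. Scn10a was the lowest member in the controls and the third highest in the mutants, where its mean ± SD took in the means of Scn2a, Scn3a, Scn8a, Scn11a, Scn1a and Scn2b.

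The make-up of the alpha subunit transcripts was taken from the same scale, over 9 alpha subunit genes, the 7 members with Scn4a and Scn7a. Scn10a made up 0.75%, 0.713% and 0.274% of the sum in control mice 1, 2 and 3 and 9.31%, 21.8% and 18.7% in mutant mice 1, 2 and 3. Scn11a made up 0.485%, 0.695% and 0.561% in the controls and 7.53%, 13.6% and 8.79% in the mutants. The tetrodotoxin-resistant pair together went from 1.16% ± 0.29 to 26.6% ± 9.33 (SD, n = 3), with mutant 1 at 16.8% and mutant 2 at 35.4%.

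Scn9a took a smaller step, from 4.24%, 4.21% and 4.06% to 5.46%, 8.17% and 7.78%. The 4 broadly neuronal subunits made up 94.0% ± 0.31 of the sum in the controls and 58.3% ± 13.4 in the mutants. In absolute terms their summed level was 49.5 ± 2.00 CPM per kb in the controls and 46.5 ± 3.00 in the mutants, while that of the 3 nociceptor-type subunits was 2.80 ± 0.10 and 29.1 ± 14.2 CPM per kb. The sum over the 9 genes was 52.7 ± 1.95 CPM per kb in the controls and 82.4 ± 18.0 in the mutants.

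**Figure D3:**
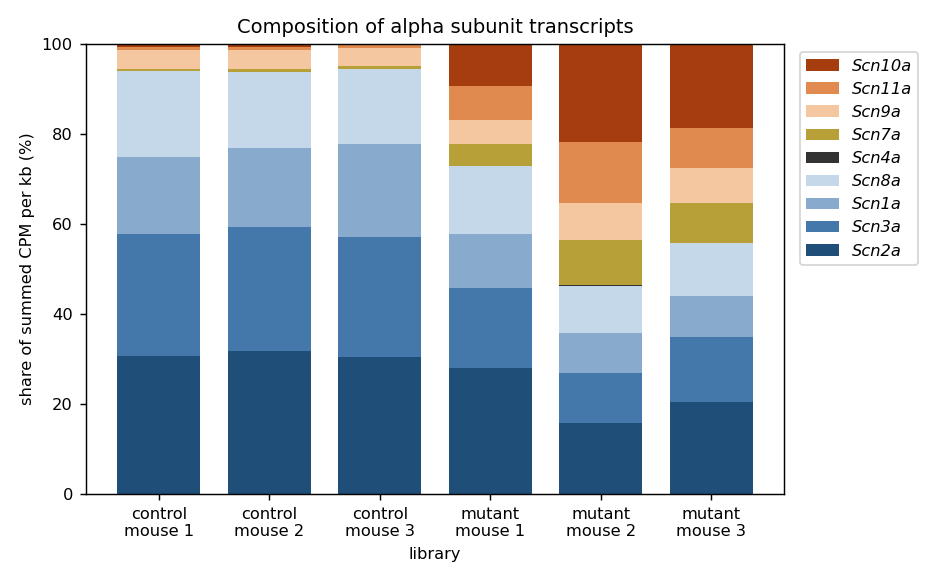
Share of each alpha subunit gene in the summed CPM per kb of 9 alpha subunit genes, 1 bar for each library. Blue bands (broadly neuronal subunits) fill 93.7% to 94.3% of the control bars and 46.3% to 72.8% of the mutant bars, and the orange bands (nociceptor-type) fill 22.3% to 43.6% of the mutant bars.

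Within the nociceptor-type group the balance of the subunits also differed. Per length, Scn10a stood at 0.138 ± 0.06 of Scn9a in the controls and at 2.26 ± 0.50 of Scn9a in the mutants (SD, n = 3). Scn11a stood at 0.139 ± 0.03 of Scn9a in the controls and at 1.39 ± 0.27 in the mutants. Scn10a relative to Scn11a was 1.55, 1.03 and 0.489 in the controls and 1.24, 1.61 and 2.13 in the mutants, ranges that overlapped. No test was made of these ratios.

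Other sodium channel genes of the mouse were examined beside the members. Scn7a, a related channel of sensory neurons and glia that responds to sodium concentration and not to voltage, was at 2.18, 2.35 and 2.86 CPM in the controls and at 21.4, 69.8 and 58.0 CPM in the mutants. It had the library order of the nociceptor-type subunits, and its log2 fold change was 4.33 ± 0.44 (SE; adjusted p = 0.00518, edgeR's quasi-likelihood test). Its transcript held no match to the pore stretch shown above.

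Scn4b, the disulfide-linked beta subunit that neighbours Scn2b on the chromosome, was at 5.79, 5.90 and 12.05 CPM in the controls and at 11.2, 22.9 and 14.8 CPM in the mutants, which overlapped (log2 fold change 1.04, adjusted p = 0.0745, edgeR's quasi-likelihood test). Scn4a, the channel of skeletal muscle, was under the filter on low counts, with 2 to 4 counts in each control and 13, 26 and 4 counts in mutants 1, 2 and 3.

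A list of 20 partners of sodium channels, such as the ankyrins that anchor them and the FGF-homologous factors that bind their tail, was examined too. Of the 20, 2 were higher in the mutants (8.62% of all genes) and 1 was lower (6.01% of all genes), shares near the background, and the median log2 fold change was 0.10. Tmem233, which encodes a membrane protein that binds Scn9a channels in sensory neurons, was at 0.401, 0.572 and 0.171 CPM in the controls and at 8.49, 35.9 and 17.8 CPM in the mutants. The mutant order followed that of Scn11a, and the log2 fold change was 5.74 ± 0.64 (SE; adjusted p = 0.00588, edgeR's quasi-likelihood test).

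S100a10, which carries Scn10a channels to the membrane, was higher in the mutants by a log2 fold change of 0.69 (adjusted p = 0.0424, edgeR's quasi-likelihood test). Fgf14, which binds the tail of alpha subunits at the initial segment, was lower, at 36.0, 40.5 and 44.9 CPM in the controls and 27.0, 27.2 and 29.3 CPM in the mutants (log2 fold change -0.54, adjusted p = 0.0193, same test). The calls of S100a10 and Fgf14 were lost with the mouse number as a block (adjusted p 0.087 and 0.0531), and those of Tmem233 and Scn7a held.

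Marker genes of sensory neurons moved with the nociceptor-type subunits. Of 11 dorsal root ganglion genes measured, 9 were higher in the mutants and none was lower, and the summed level was 289, 228 and 234 CPM in the controls and 373, 875 and 896 CPM in the mutants. Avil, the actin-binding protein advillin, which marks nearly all somatosensory neurons, was at 6.25, 5.21 and 4.17 CPM in the controls and at 27.9, 94.4 and 89.9 CPM in the mutants. Prdm12, a transcription factor needed for nociceptors to form, was at 0.458, 1.20 and 0.857 CPM in the controls and at 10.2, 37.4 and 32.8 CPM in the mutants. Mutant 1 was the lowest mutant for both, as for Scn9a, Scn10a and Scn11a.

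The pan-sensory transcription factor Pou4f1, which spinal neurons also use, had a log2 fold change of 0.21 with an adjusted p of 0.416 (edgeR's quasi-likelihood test). Isl1, shared with motor neurons, missed the threshold too (1.09, adjusted p = 0.068, same test). The part that sensory neuron content plays in the levels of the members was not tested.

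Marker lists of other cells were set beside these values. Of 9 Schwann cell genes 6 were higher, with a summed level of 142, 93.4 and 85.7 CPM in the controls and 224, 1441 and 345 CPM in the mutants. Mutant 2, which was highest for the nociceptor-type subunits, was thus set apart by this sum, mostly by Pmp22 (782 CPM) and Prx (330 CPM). Ngfr and Foxd3 were higher in mutant 3 (206 and 16.8 CPM) than in mutant 2 (189 and 15.4 CPM). The other genes of the list were highest in mutant 2. Of 12 skeletal muscle genes, 10 of them tested, 8 were higher, with sums of 47.8, 44.3 and 29.6 CPM in the controls and 667, 354 and 147 CPM in the mutants, an order of libraries unlike that of the nociceptor-type subunits and Scn2b. Of 5 fibroblast genes 3 were higher (281 to 850 CPM against 1421 to 2354 CPM). Opalin of oligodendrocytes and Tnnc2 of skeletal muscle were at or near 0 counts in all 6 libraries.

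The cells that use the broadly neuronal subunits were followed the same way. None of the 8 genes of spinal cord and other central neurons was higher and 2 were lower (Slc32a1 and Pax2), and of 4 motor neuron genes 1 was lower (Slc18a3). No astrocyte gene (of 6) or oligodendrocyte gene (of 6 tested) passed the test in either direction. Scn10a and Scn11a were called in all 6 fits that left out 1 mouse, including the one without mutant 2, where their log2 fold changes still exceeded 4. Whether the marker lists account for the members' differences was not tested.

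**Figure D4:**
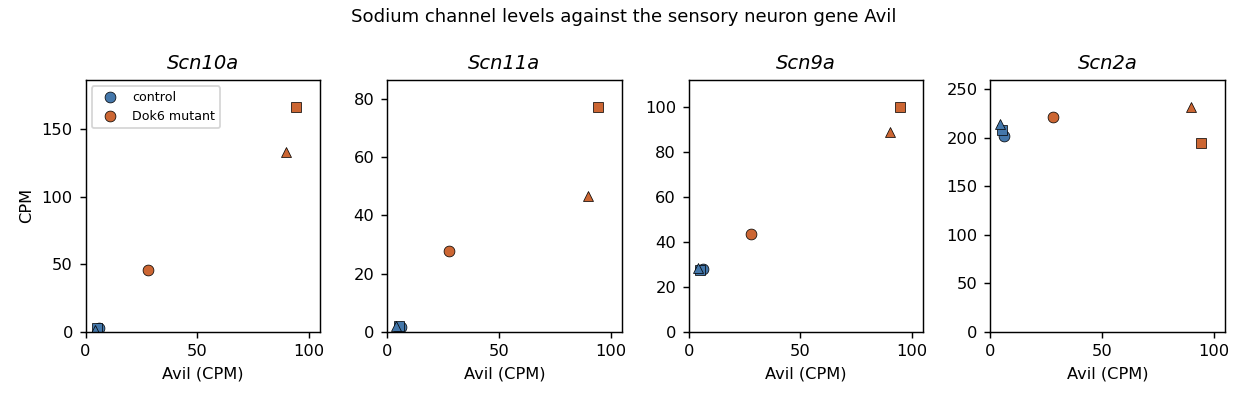
CPM of Scn10a, Scn11a, Scn9a and Scn2a against CPM of Avil, a gene of somatosensory neurons, with 1 point for each library (controls blue, mutants orange; circles, squares and triangles are mice 1, 2 and 3). The nociceptor-type subunits are lowest in the controls, intermediate in mutant 1 and highest in mutants 2 and 3, while Scn2a stays between 194 and 232 CPM at every level of Avil.

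Relative to the summed level of the 11 dorsal root ganglion genes, Scn9a was 9.68% to 12.2% in the controls and 9.91% to 11.6% in the mutants, overlapping ranges. Scn2b was 4.73% to 7.70% in the controls and 4.30% to 7.93% in the mutants, which overlapped as well. Scn10a was 0.513% to 1.28% in the controls and 12.3% to 19.1% in the mutants, and Scn11a 0.515% to 0.930% and 5.20% to 8.83%. Relative to this sum, which is made up mostly of Prph and Pou4f1, the genotypes thus overlapped for Scn9a and Scn2b and stood apart for the tetrodotoxin-resistant pair.

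Relative to Avil alone the picture differed. Scn10a was at 28.8% to 56.0% of the Avil level in the controls and at 148% to 177% in the mutants. Scn9a was at 449% to 684% of it in the controls and at 98.7% to 155% in the mutants, so its difference was smaller in proportion than that of Avil. The gain over the control mean was also divided by the gain of Avil in the same mutant, a measure chosen after the values were seen. For Scn10a it was 1.92, 1.84 and 1.54 in mutants 1, 2 and 3, and for Scn9a 0.669, 0.807 and 0.717. For Scn11a it was 1.14, 0.846 and 0.529, and for Scn2b 0.656, 0.306 and 0.281. Scn10a, Scn11a and Scn2b were thus highest relative to the gain of Avil in mutant 1, and Scn9a was lowest there. These ratios are in CPM, not per length, and compare libraries and not genes.

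Genes were ranked by how closely their log2 CPM followed that of a member over the 6 libraries, among 15672 genes with a mean of at least 1 CPM. These r values describe 6 points that share their library and fall into 2 genotypes, so they carry no test. The closest to Scn10a were Chst5 (r = 0.999), Htr3b (0.998), Gm13425 (0.998), Sphk1 (0.998) and Myo1a (0.997), of which Htr3b encodes a subunit of the ionotropic serotonin receptor. The closest to Scn11a were Aqp1 (0.999), Mrgprd (0.999), Dhx29 (0.997), Cdk15 (0.997) and Stat6 (0.995). Of these, Mrgprd is the receptor that marks non-peptidergic nociceptors and Aqp1 a water channel. An r value does not reflect the size of a difference. For the 5 genes closest to Scn10a the log2 fold changes were 1.04, 5.21, 4.64, 1.15 and 4.01, in the order named. For those closest to Scn11a they were 4.53, 7.32, 0.36, 1.44 and 2.11.

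The closest to Scn9a were Dgkh (0.997) and, at 0.994 each, D130009I18Rik, Dock11, AC154412.1 and Cnmd. For Scn2a the highest values were lower, with Zc3h10 at 0.988 and 4933427D14Rik, Slc25a1, Lin7a and Cmtm8 between 0.973 and 0.980. Among the members, Scn10a followed Scn11a with r = 0.983, Scn9a with 0.944 and Scn2b with 0.929, and its r with Scn2a was 0.17.

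Scn3a, Scn2a, Scn1a, Scn9a and Scn7a lie in a cluster on chromosome 2 and Scn10a and Scn11a in a cluster on chromosome 9, and the differences did not run through the chromosome 2 cluster. There, Scn3a, Scn2a and Scn1a did not pass the test, while Scn9a and Scn7a at one end did. Among the protein-coding genes between them, Csrnp3 was lower (log2 fold change -0.36, adjusted p = 0.0288), Ttc21b was higher (0.81, adjusted p = 0.0123) and Galnt3 did not pass (0.27, adjusted p = 0.693, edgeR's quasi-likelihood test throughout). Beyond Scn7a, the nearest tested gene was Xirp2, a gene of striated muscle, higher by 4.05 (adjusted p = 0.0279).

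On chromosome 9, Scn10a and Scn11a are transcribed in the same direction. Their log2 fold changes were 5.58 and 4.80, whereas Xylb, Acvr2b and Exog, on the Scn10a side, had -0.42, 0.06 and -0.07, none past the threshold. On the Scn11a side Wdr48 and Cx3cr1 did not pass (0.15 and 0.88), and Gorasp1 was higher by 0.51 (adjusted p = 0.0252, edgeR's quasi-likelihood test). Differences of over 4 log2 units on this stretch were thus seen for Scn10a and Scn11a and not for these 6 genes around them.

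**Figure D5:**
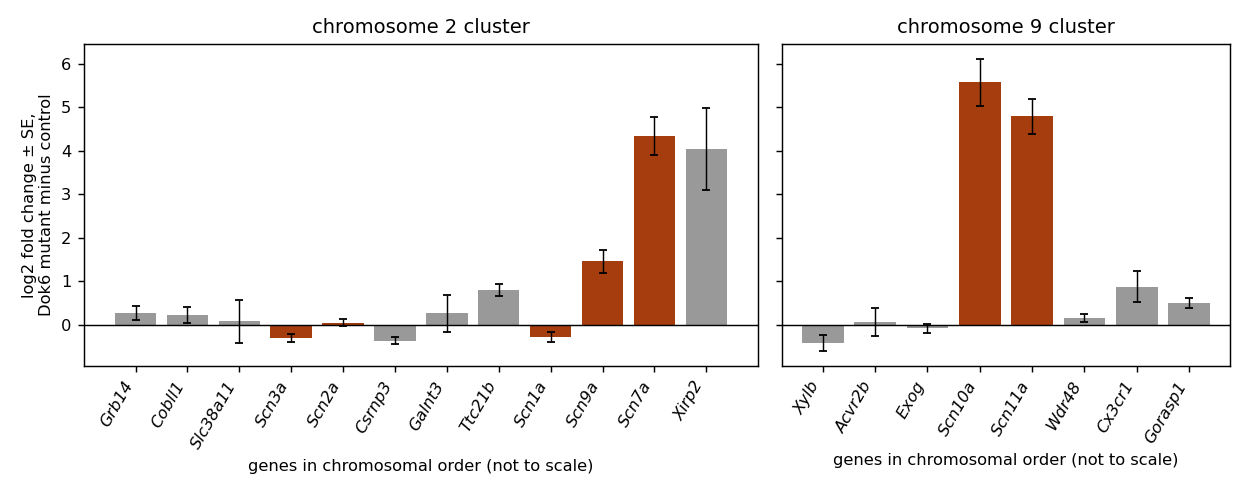
Log2 fold change (Dok6 mutant minus control, bars, with SE as error bars) of tested genes in and beside the chromosome 2 and chromosome 9 sodium channel clusters, in chromosomal order and not to scale, with sodium channel genes in brown and others in grey. Scn10a and Scn11a stand at 5.58 and 4.80 between genes that lie from -0.42 to 0.88.

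Because Scn10a and Scn11a moved together and lie side by side, their promoters are shown, from 250 bases before to 50 bases after the annotated start (RefSeq, GRCm38.p6, minus strand, chr9:119718983-119719282 for Scn10a and chr9:119825407-119825706 for Scn11a). RefSeq gave a promoter for 7 of the 9 members. The capitals mark the longest run of letters that these promoters share.

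Scn10a: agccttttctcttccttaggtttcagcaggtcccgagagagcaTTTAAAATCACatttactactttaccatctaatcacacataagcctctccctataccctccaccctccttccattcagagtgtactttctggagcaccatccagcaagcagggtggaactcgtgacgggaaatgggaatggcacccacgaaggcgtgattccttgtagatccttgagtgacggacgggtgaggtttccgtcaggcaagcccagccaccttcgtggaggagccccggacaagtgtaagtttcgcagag
Scn11a: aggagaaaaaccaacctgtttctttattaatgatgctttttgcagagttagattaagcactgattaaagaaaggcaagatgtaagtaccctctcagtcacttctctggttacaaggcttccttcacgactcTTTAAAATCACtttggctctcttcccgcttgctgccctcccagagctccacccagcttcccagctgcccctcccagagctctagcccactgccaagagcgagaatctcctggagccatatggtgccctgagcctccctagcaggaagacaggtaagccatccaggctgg

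The shared run, TTTAAAATCAC, is 11 bases long and begins at position -207 in Scn10a and -119 in Scn11a relative to the start. It was found on either strand in 8 of 32851 mouse promoters (0.0244%), but it was picked from these sequences and so describes them only. The GC content was 51.7% for Scn10a and 50.3% for Scn11a, near the median of all promoters (52.7%). Of the members with a promoter, TATAAA was present in Scn2a (in 13.6% of all promoters), TGTGGT, the core recognized by Runx factors, was present in Scn2a and Scn2b (16.8%), and the octamer ATGCAAAT in none (1.74%), counted on both strands.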

How the data were processed

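Total RNA of tissue labelled sciatic nerve was sequenced on an Illumina NovaSeq sequencer from libraries of a NEBNext Ultra kit (the labels do not call it directional, the study's methods name the strand-specific Directional version), 3 control and 3 Dok6 mutant mice. The deposited values are counts, whole numbers of reads per gene that the authors did not normalize; the build was mm10, and the aligner, the counter and whether counting used strand are not given in the sources used here. Counts were tested with edgeR 4.0.16 (limma 3.58.1) in R 4.3.3: filterByExpr, TMM scaling and 1 quasi-likelihood fit of all 6 libraries (glmQLFit, glmQLFTest) without a block, with Benjamini-Hochberg adjustment over the 17099 genes tested of 54532. The SE was derived from the F statistic, and CPM use TMM-scaled library sizes. Replicate mice varied with a common biological coefficient of variation of 16.6%. Nothing in the labels says more of the replicates than that they are separate mice.

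On simulated counts, 195 of 200 genes changed by a log2 fold change of 2.5 were recovered between the genotypes, with 16855 genes tested. Lengths deposited with the counts equalled the summed exonic bases of GENCODE M21 for 98.01% of gene IDs and for all 9 members. BLAST 2.17.0 found no other gene matching a member's transcript at 95% identity over 200 bases. Alternatives were DESeq2 1.42.0, limma voom, other scalings, other filters, the replicate number as a block and leaving out each mouse.

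The members, gene lists and alternatives were chosen with earlier results of these data known. Genes named are the 9 members, other sodium channel genes, listed partners with an adjusted p under 0.05, Dok6, marker genes, chromosomal neighbours, and the 5 genes closest in pattern to Scn10a, Scn11a, Scn9a and Scn2a. Some genes of these lists and one stretch of sequence are not reported here.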

Additional observations from a re-analysis of the deposited data

How the results depend on the processing

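Of 117 values of a member under an alternative, 110 kept their direction and their side of the threshold, 4 passed it newly, 2 no longer did and 1 changed sign (Scn2a, -0.0004 without mutant replicate 3, within a range of -0.0004 to 0.13 with a mouse left out, not past the threshold in any fit). The number of members called higher was 4 under every alternative that kept all mice and 2 to 4 when each mouse was left out in turn, with 2 reached only without control replicate 2, where Scn9a and Scn2b were lost. In that fit 56 genes in all were higher and 12 lower, against 1474 and 1028. The number called lower was 0 in the fit reported, 1 with DESeq2 and 1 with no filter (Scn3a, adjusted p 0.0294 and 0.0466), and 0 to 2 when each mouse was left out, with 2 (Scn3a and Scn3b) without mutant replicate 3. Scn10a and Scn11a passed a log2 fold change of 2 in every alternative, Scn10a from 5.22 to 5.96 and Scn11a from 4.35 to 5.09 with a mouse left out, and their highest adjusted p was 0.0495 and 0.0397.

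With the replicate block, 4 members were higher and 0 lower, Scn9a at an adjusted p of 0.0416 and Scn2b at 0.0276, while over all genes 432 were higher and 130 lower. Mice of the same number did not deviate together (r = -0.01, -0.17 and -0.24), so they share only a number. The lowest member count was 21 (Scn10a in control mouse 3). Whether depth or the 3 mice a group limited the other calls was not tested.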
